A study of Danio rerio with 12 samples.

Results

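RNA abundance was compared across all genes between the 2 libraries labelled sperm and the 2 shield-stage embryo libraries of zebrafish with the anp32e null mutation, which are 4 of the 12 libraries of the series. The libraries were assigned to the groups by their labels. The null shield libraries came from embryos of strain NHGRI at 6 h post fertilization, the start of gastrulation, with no injection listed. The libraries labelled sperm carry the stage label sperm, the mutation label Anp32e Null, no strain and no injection, and their labels repeat the extraction text of the other libraries, which speaks of lysed embryos. The labels do not state the allele, the number of fish or embryos behind a library, or separate clutches, so p-values measure a spread that may be technical. The series also holds shield embryos that were wild type (strain Tu) or null for the maternal or the paternal copy (Tu X NHGRI), and sphere-stage embryos that received Anp32e protein (no strain stated). Their levels are given where they show a gene across stages. Anp32e is a histone chaperone that removes the histone variant H2A.Z from chromatin.

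A growing oocyte stores messenger RNAs for the egg coat, for meiotic maturation, for germ plasm and for the first cell divisions. After fertilization the embryo clears much of this maternal RNA and switches on its own genome, and by shield stage the organizer, the germ layers, the enveloping layer and the yolk syncytial layer express their own genes. Ripe sperm is compact, is transcriptionally silent and carries little RNA, with remnants of genes for the flagellum.

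The labelled sperm libraries held 47688140 and 38738436 counts, the null shield libraries 25702725 and 21203705, and the 12 libraries of the series from 13523363 to 47688140. The chi-square per degree of freedom between the 2 null shield libraries was 1.05, so they differed by little more than counting noise and were counted as 1 sample, as were the maternal null, paternal null and sphere pairs. It was 42.9 between the labelled sperm libraries and 95.2 between the wild-type libraries, which remained 2 samples each. The model therefore rested on 8 samples with 2 residual degrees of freedom, both of which come from the wild-type and the labelled sperm pairs. Levels below are CPM, the usual unit in which a gene's counts are divided by the scaled size of the library, given per library, and differences are labelled sperm minus null shield on the log2 scale with a standard error (SE). A group with no count was set at a floor of 3 counts over the group, 0.0342 CPM for labelled sperm and 0.0685 CPM for null shield. Stage, tissue, strain and any difference in handling cannot be told apart in this comparison, and in bulk RNA fewer cells of a type and less RNA per cell cannot be told apart.

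Of 22712 genes tested, 6822 (30%) were higher and 6930 (30.5%) lower in the labelled sperm libraries at an adjusted p under 0.05 by edgeR's quasi-likelihood test with Benjamini-Hochberg adjustment, and 8960 did not pass, so 60.5% of genes passed in one direction or the other. The libraries of the 2 groups did not overlap for 90.2% of the genes tested, so a lack of overlap at a single gene is common here. The median log2 difference over all genes was 0.07. Of the genes that passed, 4699 were more than 4-fold higher and 5178 more than 4-fold lower, and 1016 were more than 32-fold higher against 1893 lower. A level of 5 CPM was reached by 10736 genes in labelled sperm and by 10843 in null shield, with 8558 in both. The shares of all genes that passed, 30% higher and 30.5% lower, are the background for every list below.

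**Figure D1:**
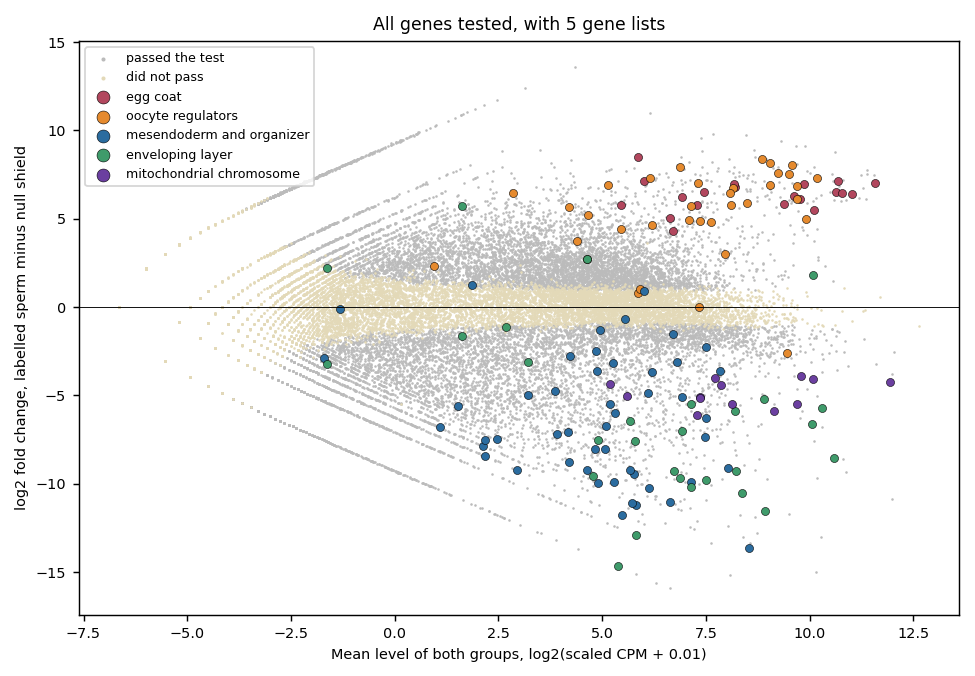
Each point is 1 of the genes tested, with the mean level of both groups (log2 of scaled CPM plus 0.01) on the x axis and the log2 fold change, labelled sperm minus null shield, on the y axis. Egg coat and most oocyte regulator genes lie above 0, and the mesendoderm, enveloping layer and mitochondrial genes lie mostly below it. The diagonal bands at low levels are genes with few counts.

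The gene named in the mutation label, anp32e (ENSDARG00000054804, chromosome 19, 42758985 to 42772378, Zv10), had 11 and 12 counts in the labelled sperm libraries and 2087 and 1706 in the null shield libraries. These are 0.227 and 0.307 CPM against 87 and 86.2 CPM, without overlap, a difference of -8.34 ± 0.54 (adjusted p = 1.12e-06, edgeR). Its level was 2623 CPM in wild-type shield embryos, 1291 in maternal null, 1472 in paternal null and 786 in the injected sphere embryos. Both null groups were thus below every other group, and the labelled sperm libraries were near 0.

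The related genes anp32a and anp32b were lower in the labelled sperm libraries too. Levels of anp32a were 60.4 and 63.3 CPM against 914 and 921 CPM (-3.89 ± 0.41, adjusted p = 2.25e-05, edgeR), and those of anp32b 294 and 240.1 against 1480.0 and 1497 CPM (-2.48 ± 0.41, adjusted p = 4.40e-04). Of the 25 genes of H2A.Z, its exchange complexes and the Anp32 family, 4 were higher, 7 lower and 14 did not pass, with a median of -0.33. These counts moved to between 2 and 8 higher and between 5 and 11 lower under other settings. The H2A.Z gene h2az2 had 328 and 367 CPM against 442 and 429 CPM (adjusted p = 0.52), and srcap, the motor of an H2A.Z loading complex, was lower (106 against 315 CPM).

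The labels were read against defining markers. The oocyte genes zar1 and buc, needed for the oocyte-to-embryo transition and for the Balbiani body of the oocyte, were higher in both labelled sperm libraries. zar1 (chromosome 20, 23524713 to 23527239) had 1185 and 1236 CPM against 6.59 and 6.11 CPM, 189.6-fold higher (7.57 ± 0.57, adjusted p = 2.42e-06, edgeR). buc (chromosome 2, 28199465 to 28203585) had 1683 and 1605 CPM against 14.7 and 14.1 CPM, 114-fold higher. The groups did not overlap for either gene. The oocyte transcription factor gene figla (31.2 and 42.1 against 0.667 and 0.758 CPM) and the oocyte growth factor gene gdf9 (57.2 and 39.1 against 1.38 and 1.16 CPM) behaved alike.

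The defining sperm markers had few counts. tssk6, a kinase of late spermatids, had 8 and 10 counts in the labelled sperm libraries and 11 and 8 in null shield, and spag6, of the axoneme, 9 and 15 against 6 and 6; neither passed (adjusted p = 0.21 and 0.99, edgeR). tekt1, a tektin of flagellar microtubules, had 30 and 32 counts against 2 and 1, which is 10.3-fold higher with a 95% counting interval of 3.37 to 51.5 (adjusted p = 0.01). It did not pass with DESeq2 or without labelled sperm replicate 2, the adjusted p ranging from 8.28e-05 to 0.1 over the alternatives. The 54 sperm and flagellum genes together held 0.0153 and 0.0181% of all counts in the labelled sperm libraries, against 0.0137 and 0.0132% in null shield. Of them 19 were higher, 9 lower and 26 did not pass, with a median of 0.64, and these counts moved between 11 and 24 and between 4 and 18 under other settings. Without labelled sperm replicate 1, 4 were lower, and without replicate 2, 11 were higher and 5 lower. Of the list, 10 genes reached 5 CPM in the labelled sperm libraries and 8 in null shield. efhb, an EF-hand protein of ciliary doublets, was the most raised of them at that level (23.3 and 26.3 against 0.292 and 0.404 CPM, 6.17 ± 0.62, adjusted p = 1.56e-05), and dnai2b, of the dynein arms, was lower (4 and 3 counts against 28 and 19). Of 35 genes with a cfap symbol (cilia and flagella associated proteins), 19 were higher and 5 lower (54.3% and 14.3%, against 30% and 30.5% of all genes). They were grouped after the values were seen and are in part members of the list. Their median was 1.65, with sums of 347 and 408 against 179 and 184 CPM. Other cilium symbols differed. Of 13 ift genes 0 were higher and 6 lower (176 and 171 against 303 and 295 CPM). Of 12 dnah genes 2 were higher and 1 lower. Many of these genes also serve other cilia.

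The RNA of these libraries was thus rich in oocyte markers, and the defining sperm markers had few counts, which is not what the label sperm alone describes. They are called the libraries labelled sperm throughout. The share of sperm and of any other cell in them was not tested.

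Markers of gonad somatic cells, blood and liver all had counts in the labelled sperm libraries, most of them under 5 CPM. The Leydig cell hormone gene insl3 had 18 and 25 counts and the 2 null shield libraries none (at least 7.16-fold higher, adjusted p = 0.0069, edgeR), a call that ended without labelled sperm replicate 2. cyp11c1, of 11-ketoandrogen synthesis in the testis, had 0 and 4 counts against 41 and 31 and was lower. cyp17a1, the steroid hydroxylase of both gonads, was higher at 123 and 119 CPM against 12.8 and 11.5 CPM. The aromatase gene cyp19a1 had 17 and 12 counts against 2 and 2 (adjusted p = 0.13), and both foxl2 genes, of ovarian follicle cells, had 70 and 41 counts (ENSDARG00000068417) and 12 and 13 counts (ENSDARG00000042180) against 4 and 4, and 0 and 0. Each foxl2 call ended under 1 or more alternatives. The summed level of the 18 testis somatic genes was 155 and 144 CPM, most of it cyp17a1, against 21.9 and 21.8, and that of the 18 ovary somatic genes 40.3 and 38.6 against 81.8 and 82.5 CPM. Most of the ovary list's embryo sum was wnt4b, a Wnt ligand gene (10.9 and 12.4 against 72.7 and 73 CPM), and without it the other 17 genes summed to 29.5 and 26.2 against 9.09 and 9.5 CPM, the opposite direction. In the testis list 8 were higher and 2 lower, and in the ovary list 7 and 2. Among the higher ones at 5 CPM or more, sox9 (ENSDARG00000043923) of the testis list had 15.5 and 10.6 against 0.417 and 0.505 CPM. The symbol sox9 is not unique to this gene and does not tell which copy it is, so it may not mark testis cells. In the ovary list, esr2 (ENSDARG00000016454) had 8.63 and 7.61 against 0.5 and 0.253 CPM.

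The leukocyte gene ptprc had 60 and 57 counts against 0 and 1, and the haemoglobin gene hbaa1 141 and 316 against 1 and 4, a copy-rich family whose reads may be shared. The blood list summed to 25.9 and 37.4 CPM against 64.6 and 65 CPM, with 6 of 11 genes higher and 1 lower, and the lower one, the plastin gene lcp1, made up most of the embryo sum (58.9 and 59.4 CPM). Without lcp1 the other 10 genes summed to 25.6 and 36.9 against 5.62 and 5.65 CPM, again the opposite direction. Among these 10, cd74a had 8.98 and 11.3 against 0.0834 and 0.0505 CPM. Of 8 liver and yolk protein genes none reached 5 CPM in either group; vtg1, the vitellogenin made by the liver, had 1 and 3 counts.

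**Figure D2:**
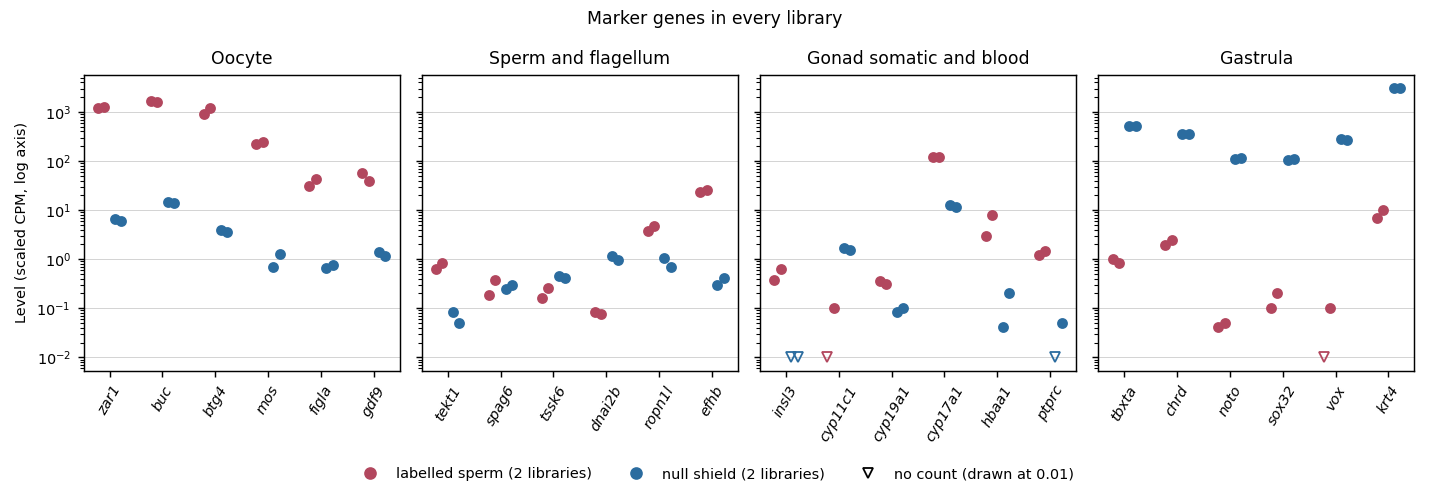
Levels of 24 marker genes in each of the 4 libraries (scaled CPM, log axis), with red for the 2 labelled sperm and blue for the 2 null shield libraries. Open triangles are libraries with no count, drawn at 0.01. The oocyte genes are high in red and the gastrula genes high in blue, without overlap, whereas most sperm and flagellum genes stay under 10 CPM in every library.

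The egg coat genes, which encode the zona pellucida proteins around the egg, were higher without exception. All 20 genes tested passed in the labelled sperm libraries (against 30% of all genes), the median difference was 6.42, and this count was 20 under each of the 14 alternatives. They took up 2.88 and 3.57% of all counts in the labelled sperm libraries and 0.0345 and 0.0344% in null shield. zpax1 (chromosome 20, 43839943 to 43846622) had the most counts of all genes over both, 5544 and 6611 CPM against 45.8 and 48.6 CPM, 128-fold higher (7.01 ± 0.59, adjusted p = 4.63e-06, edgeR). zp3e had 2924 and 3737 against 24.9 and 23.2 CPM, and zp2l2 113 and 121 against 0.292 and 0.354 CPM, 364-fold higher. Many zp genes are near copies of each other, so the split of reads among them is uncertain.

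Of 35 genes that act in the oocyte or store its RNA, 32 were higher, 1 lower and 2 did not pass, with a median of 5.76. slbp2, the oocyte form of the histone mRNA binding protein, had 864 and 983 CPM against 2.79 and 2.83 CPM, 326-fold higher (8.36 ± 0.68, adjusted p = 3.85e-06, edgeR). btg4, an adaptor for the removal of maternal mRNA tails, had 912 and 1213 against 3.88 and 3.64 CPM. mos, a kinase of meiotic maturation, had 225 and 245 against 0.709 and 1.26 CPM. The groups lay far apart for slbp2, btg4 and mos. The exception was ybx1, a general mRNA-binding and packaging protein, at 265 and 131 against 1195 and 1211 CPM (-2.60 ± 0.50, adjusted p = 0.0011). The genes that did not pass were celf1 (162 against 159 CPM) and tuba8l2 (74.1 against 42.4 CPM).

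Germ plasm and piRNA genes showed the same direction, with 25 of 28 higher, 0 lower and a median of 4.67. The germ plasm-linked ca15b had 1424 and 1486 CPM against 7.5 and 8.18 CPM, 186-fold higher (7.54 ± 0.58, adjusted p = 2.78e-06, edgeR). piwil1, the Piwi protein that binds piRNAs, had 162 and 195 against 14.2 and 12.3 CPM (3.74 ± 0.43, adjusted p = 3.58e-05). ddx4, the vasa helicase that marks germ cells at all stages, did not pass (47.8 and 34.8 against 60.6 and 61.3 CPM, -0.56 ± 0.36, adjusted p = 0.19). It passed as lower under 6 of the 14 alternatives, where the adjusted p ranged from 0.0065 to 0.7. The others that did not pass were gtsf1 (476 against 377 CPM) and tdrd15 (151 against 88.8 CPM).

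Meiosis genes were mixed, with 12 of 30 higher, 6 lower and a median of 0.66. stag3, a meiotic cohesin subunit, had 35.2 and 35 CPM against 0.25 and 0.556 CPM, 90.4-fold higher (6.49 ± 0.57, adjusted p = 6.01e-06, edgeR), and mei4 and spata22, of meiotic recombination, were higher too (12.4 against 0.708 and 12 against 0.731 CPM). sycp3, of the synaptonemal complex, was lower at 1.34 and 1.56 against 5.17 and 5 CPM (-1.81 ± 0.43, adjusted p = 0.0041), and lost the call without labelled sperm replicate 1 (adjusted p 2.58e-08 to 0.08 over the alternatives). mnd1, a partner of the strand exchange proteins, was lower as well (16.1 and 21 against 63.8 and 69.1 CPM).

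Cell cycle genes were mixed, and some copies of a gene went opposite ways. Of 42 genes, 13 were higher and 12 lower, shares near the background, and the number higher reached 22 with every library counted as a sample. mcm3l, a copy of the replication helicase gene mcm3, had 672 and 745 CPM against 12 and 11.4 CPM, 60-fold higher (5.92 ± 0.51, adjusted p = 5.68e-06, edgeR). mcm3 itself had 4.15 and 3.14 against 740.0 and 748 CPM, 201-fold lower (-7.67 ± 0.46, adjusted p = 7.51e-07). The labelled sperm libraries were thus high in the first copy and the embryos in the other. The 2 genes listed as mcm6 differed in the same way, ENSDARG00000033231 at 294 and 332 against 21 and 22.5 CPM and ENSDARG00000057683 at 10.7 and 7.46 against 653 and 647 CPM. Among cyclins, ccna1 of the germ line was higher (1645 and 2148 against 59.4 and 60.3 CPM), and ccne2 and ccnd1, which drive entry into S phase, were lower (3.38 and 5.19 against 568 and 565 CPM, and 31.3 and 29.8 against 1788 and 1785 CPM). wee2, the oocyte form of the inhibitory Wee kinase, was 28.3-fold higher. Copies such as those of mcm3 and mcm6 may share reads, so their levels are uncertain.

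Genes tied to zygotic activation and maternal clearance were mixed. Of 25 genes, 9 were higher (36%) and 8 lower (32%) with a median of -0.23, shares near the background of 30% and 30.5%. nanog, a pioneer factor, had 1088 and 1016 CPM against 60 and 60.1 CPM, 17.6-fold higher (4.13 ± 0.67, adjusted p = 3.78e-04, edgeR). sox19b, its maternal SoxB1 partner, had 646 and 747 against 156 and 164 CPM (2.13 ± 0.43, adjusted p = 0.0015). pou5f3, the third pioneer factor, was lower at 627 and 494 against 1716 and 1715 CPM (-1.61 ± 0.39, adjusted p = 0.0044), but lost the call without either labelled sperm library (adjusted p = 0.071 and 0.15, in a range of 1.06e-12 to 0.15). The T-box gene eomes, known as a maternal factor in zebrafish, was 22.5-fold higher (116 and 75.6 against 4.75 and 3.89 CPM), and hmgn6, a nucleosome-binding protein, 485-fold lower (1.3 and 1.53 against 681 and 679 CPM).

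Among 20 genes of DNA methylation and its removal, 6 were higher and 9 lower with a median of -0.98. dnmt1, the maintenance methyltransferase, had 2109 and 1969 CPM against 293 and 289 CPM, 7.03-fold higher (2.81 ± 0.45, adjusted p = 3.48e-04, edgeR). dnmt3ba, a de novo methyltransferase, had 97.8 and 118 against 602 and 605 CPM, 5.65-fold lower (-2.48 ± 0.37, adjusted p = 2.20e-04). uhrf1, which guides dnmt1 to replicated DNA, did not pass (540.5 against 840.3 CPM). The stress-inducible gadd45b genes were lower, one of them (ENSDARG00000013576) at 0.516 and 0.639 against 28.4 and 29.5 CPM.

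Genes that the gastrula expresses in its germ layers were lower almost throughout in the labelled sperm libraries. Of 49 genes of mesoderm, endoderm and organizer, 45 were lower, 0 higher and 4 did not pass, with a median of -6.81. tbxta, the Brachyury factor of axial mesoderm, had 1.03 and 0.818 CPM against 525 and 518 CPM, 558-fold lower (-9.13 ± 0.46, adjusted p = 5.23e-07, edgeR). noto, which sets notochord fate, had 2 and 2 counts against 2699 and 2252, and chrd, the organizer's BMP antagonist, 1.9 and 2.45 against 351 and 363 CPM. tbx16, needed for movement of the paraxial mesoderm, had 4 and 1 counts against 18014 and 14817, 13137-fold lower (-13.61 ± 0.65, adjusted p = 5.23e-07). No library of one group reached the range of the other for any of these genes. sox32, the endoderm factor, had 0.103 and 0.204 against 107 and 108 CPM, and gsc, of the organizer, 0.289 and 0.23 against 37 and 34 CPM. mixl1 was lower by less (4.81 and 4.06 against 54 and 55.1 CPM, 12.2-fold). The genes that did not pass were ndr1 (5.13 against 2.15 CPM), dusp4 (83.6 against 44.4), wnt11 (0.377 against 0.411) and il17rd (36.6 against 56.8 CPM), and 2 members passed as higher with every library counted as a sample, with or without the replicate block, in the fit of the 4 libraries alone and without either wild-type library.

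Ventral and epidermal genes were lower in 28 of 30 cases with a median of -7.28. vox, a ventral repressor, had 0 and 4 counts against 6690 and 5429 (-12.45 ± 0.72, adjusted p = 6.68e-07, edgeR), 6062-fold lower. The BMP ligand gene bmp2 (ENSDARG00000041430) had 0.557 and 0.23 against 111 and 111 CPM, whereas the other gene listed as bmp2 (ENSDARG00000013409) had 11 and 8 counts against none. The latter was the 1 gene of the list that was higher, and 7 of the 14 alternatives did not call it or did not test it. tp63, of the epidermis, was lower by 4.74-fold only (4.91 and 2.89 against 19 and 18.9 CPM). In other shield groups tp63 stood at 3.9 (wild type), 5.28 (maternal null) and 3.09 CPM (paternal null), near the 4.01 CPM of labelled sperm.

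Of 28 neural patterning genes, 20 were lower and 4 higher, with a median of -4.39. sox2 had 0 and 2 counts against 3120 and 2531, 5653-fold lower with a 95% counting interval of 1564 to 46689 (-12.27 ± 0.70, adjusted p = 6.68e-07, edgeR). sox19a, the early zygotic SoxB1 gene, had 9 and 10 counts against 19758 and 16396. sox21a went the other way, at 36.4 and 44 against 0.208 and 0.404 CPM, 134-fold higher (7.07 ± 0.60, adjusted p = 4.98e-06), as did the proneural gene neurog1 (9.74 and 9.3 against 1.67 and 1.41 CPM). So the SoxB genes differed among themselves: sox19b and sox21a were higher and sox2 and sox19a lower.

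Hox genes, which pattern the body axis later on, were low in both groups. Only 1 of 31 reached 5 CPM in each group, and their summed level was 35 and 35 CPM against 39.9 and 39.4 CPM. Of them 15 were higher and 7 lower with a median of 2.70, and the number lower ranged from 1 with DESeq2 to 8, with 2 and 4 when labelled sperm replicate 1 or replicate 2 was left out. hoxd9 had 5.63 and 6.03 CPM against 0.0417 and 0.354 CPM (4.97 ± 0.71, adjusted p = 1.62e-04, edgeR), and hoxb1b, the first Hox gene of the gastrula, 1.24 and 1.02 against 30.8 and 30.2 CPM (-4.75 ± 0.88, adjusted p = 9.25e-04). hoxb1b alone made up most of the summed level of the null embryos and little of that of the labelled sperm libraries. Other shield groups had 1.26 (wild type), 0.78 (maternal null) and 1.08 CPM (paternal null) of hoxb1b, near the 1.14 CPM of labelled sperm.

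The outer and extra-embryonic layers of the embryo were as distinct. Of 28 genes of the enveloping layer, the flattened sheet that covers the blastoderm, 23 were lower and 3 higher with a median of -6.81. The keratin gene krt4 had 6.85 and 10 CPM against 3067 and 3079.7 CPM, 371-fold lower (-8.51 ± 0.54, adjusted p = 1.05e-06, edgeR). evpla, an envoplakin of cell junctions, had 0.33 and 0.332 against 981 and 973 CPM, and agr1 had no count against 1961 and 1693, at least 2437-fold lower. The level of agr1 was 83.5 CPM in null shield but 6.46 in wild-type, 15.7 in maternal null and 29.5 in paternal null shield embryos. Among those that were higher were the adhesion gene epcam (1579 and 1801 against 477 and 484 CPM) and krt18b (5.55 and 6.67 against 0.0834 and 0.152 CPM). epcam did not pass without labelled sperm replicate 2 (adjusted p = 0.061, in a range of 4.68e-12 to 0.061).

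Of 23 yolk syncytial layer genes, whose products load yolk lipid into lipoproteins, 21 were lower and 1 higher, with the lowest median of the 26 lists, -8.08. mttp, the microsomal lipid transfer protein (chromosome 1, 11419100 to 11439741), had 4 and 3 counts against 16259 and 13419, 8482-fold lower (-12.99 ± 0.59, adjusted p = 5.23e-07, edgeR). The apolipoprotein gene apoeb had 7.7 and 10.5 against 3531 and 3545 CPM, and apoa1b 0 and 1 counts against 1829 and 1575. mxtx2, which specifies this layer before gastrulation, was low in both groups (0.103 and 0.128 against 1.42 and 1.36 CPM) and stood at 41.5 CPM in the sphere embryos.

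**Figure D3:**
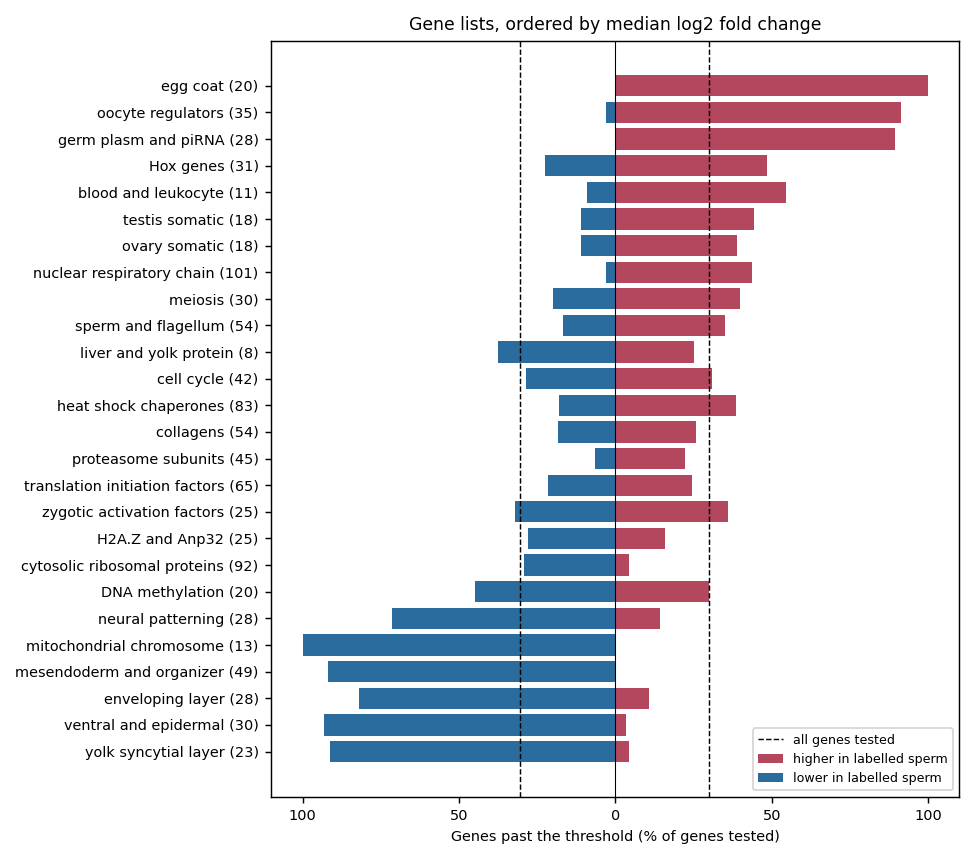
Bars give the share of each list's tested genes that were higher (red, to the right) or lower (blue, to the left) in the labelled sperm libraries, and dashed lines the shares over all genes tested, 30% and 30.5%. The number of genes tested stands in brackets, and lists are ordered by their median log2 fold change. Egg coat, oocyte and germ plasm genes stand at the top, and 6 lists from neural patterning to the yolk syncytial layer at the foot.

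The injected sphere embryos, an earlier stage that still holds much maternal RNA, lay between the groups for several of these genes. They differed from null shield in stage, in injected Anp32e protein and in anp32e level (786 against 86.6 CPM). Their titles name no null mutation, and no strain is stated for them. None of these differences can be told apart here. Against null shield, 4468 genes (19.7%) were higher and 3601 (15.9%) lower in them by edgeR with Benjamini-Hochberg adjustment, a comparison that shares the null shield sample with the one above. Their total of 8069 became 13848 or 13872 without one wild-type library and 15149 with every library counted as a sample. buc stood at 1648 CPM in labelled sperm, 353 in sphere and 14.4 in null shield, and nanog at 1056, 814 and 60 CPM. zar1 stood at 1208, 23.5 and 6.37 CPM and zpax1 at 6021, 89.3 and 47.1 CPM, so sphere was closer to null shield for both. tbxta stood at 0.936, 109.7 and 522 CPM. noto stood at 0.0457, 162 and 113 CPM, so sphere was not between the groups for it. The other shield groups had 9.74 to 12.8 CPM of zar1 and 666 to 728 CPM of tbxta, so for these genes all 4 shield groups lay far from labelled sperm. That did not hold for every gene: for hoxb1b and tp63 only null shield lay far from labelled sperm, as given above.

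**Figure D4:**
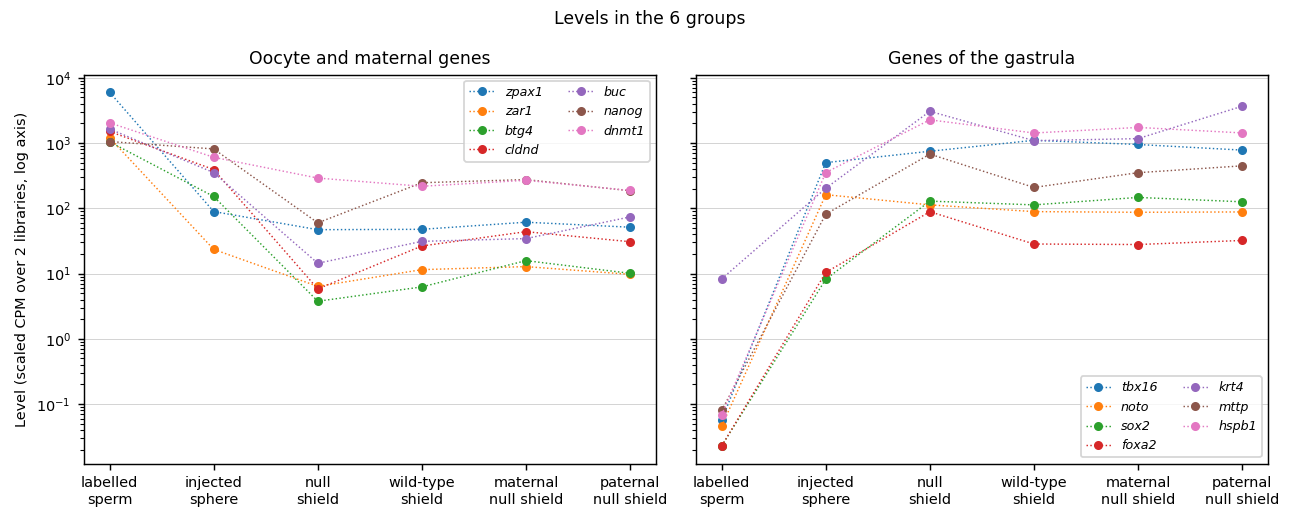
Levels of 7 oocyte or maternal genes and 7 genes of the gastrula in the 6 groups (scaled CPM over the 2 libraries of a group, log axis). Dotted lines only join the points of a gene. The labelled sperm group is highest for each gene of the first panel and lowest for each of the other, where the 4 shield groups lie above 20 CPM.

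Genes of functions shared by most cells were looked at next. All 13 protein-coding genes of the mitochondrial chromosome were lower (median -5.02) under each of the 14 alternatives, and together they took 0.081 and 0.0758% of counts in the labelled sperm libraries and 1.54 and 1.52% in null shield. mt-co1, a core subunit of cytochrome oxidase, had 419.6 and 371 CPM against 7508 and 7426 CPM (-4.24 ± 0.43, adjusted p = 1.48e-05, edgeR). mt-nd6 had 5.41 and 3.58 against 305 and 307 CPM. Nuclear genes of the respiratory chain went the other way, with 44 (43.6%) higher, 3 lower and a median of 1.13. The number higher fell to 28 without labelled sperm replicate 2. cox8b had 426 and 426 counts against 4 and 0 (6.70 ± 0.73, adjusted p = 2.58e-05), while its relative cox8a was lower (11 and 11.1 against 47.6 and 45.6 CPM). The most raised others at 5 CPM or more, ndufaf8 and ndufaf6, are assembly factors of complex I and not subunits.

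Cytosolic ribosomal protein genes had a median of -0.81, with 27 of 92 lower (29.3%, near the 30.5% of all genes) and 4 higher. The number lower depended on the samples, 4 without labelled sperm replicate 1, 12 without replicate 2 and 70 in a fit of the 4 libraries alone. rpl38 had 66.9 and 85 CPM against 307 and 301 CPM (adjusted p = 0.0015, edgeR). Those named among the higher ones, rps6ka1, rps6kal and rps6ka3 (ENSDARG00000057927), are S6 kinases that the symbol pattern took in and not ribosomal proteins. Together the list held 1.93 and 2.14% of counts against 3.09 and 3.1%.

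Of 45 proteasome genes, 10 were higher and 3 lower (median -0.15), and no lower call held without either labelled sperm library. Of 65 translation initiation genes, 16 were higher and 14 lower (median -0.17). The higher ones included eif4e1b, the oocyte form of the cap-binding protein (149 and 166 against 25.9 and 22.9 CPM, 2.68 ± 0.42, adjusted p = 3.14e-04, edgeR), and eif2ak3, a kinase of the unfolded protein response that shares the symbol stem (201 and 221 against 20.3 and 19.7 CPM). The numbers lower ranged from 0 to 18 and from 6 to 29 under the alternatives. Collagen genes were mixed, with 14 of 54 higher and 10 lower (median -0.05).

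Of 83 chaperone genes, 32 were higher and 15 lower (median 0.18). The 3 most raised at 5 CPM or more encode chaperones of the endoplasmic reticulum: dnajc3a at 156 and 167 against 6.59 and 7.63 CPM (4.52 ± 0.44, adjusted p = 1.29e-05, edgeR), hsp90b1 at 2224 and 2175 against 99.2 and 103 CPM, and hspa5 at 1858 and 1036 against 85.3 and 81.4 CPM. The small heat shock gene hspb1 (chromosome 5, 3238283 to 3255083) had 5 and 1 counts against 54296 and 45189, 33173-fold lower (-14.97 ± 0.75, adjusted p = 5.23e-07). hspa8 (ENSDARG00000068992), the constitutive cytosolic Hsp70 and the gene with most counts in null shield, had 4015 and 4199.7 against 8722 and 8699.7 CPM (-1.08 ± 0.44, adjusted p = 0.054); it passed as lower under 8 of the 14 alternatives (adjusted p 3.11e-06 to 0.37).

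Over all genes with a symbol of their own and at least 20 CPM in the higher group, foxr1, a forkhead gene known from the ovary in fish, stood first among those that were higher. It had 2202 and 1346 counts (45.4 and 34.4 CPM) and none in null shield, at least 591-fold higher (adjusted p = 7.30e-06, edgeR). Of the other 9, 7 carry systematic symbols from 3 gene clusters, and zp2l2 and qdprb.4 complete them. qdprb.4, named for a dihydropteridine reductase family, had 1282 and 1257 against 1.96 and 1.77 CPM. The clusters were looked at after these values were seen, and their members are likely to share reads. On chromosome 24, between 9836241 and 10131826, all 9 genes tested were higher, and they held 3.58 and 2.96% of counts in the labelled sperm libraries and 0.0212 and 0.0216% in null shield. On chromosome 22, between 25304141 and 25735394, 14 of 20 were higher and 2 lower, and on chromosome 20, between 54223765 and 54261750, 4 of 5 were higher. 5 of the 8 genes with most counts in labelled sperm lay in the first of these clusters or among the egg coat genes.

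At the other end, foxd5, an early neural forkhead gene (chromosome 8, 30443712 to 30444864), had no count against 4725 and 3983, at least 5807-fold lower (adjusted p = 5.23e-07, edgeR). stm, an otolith matrix protein, had 12 and 14 counts against 59003 and 49262, and the cathepsin L-like gene ctsll 0 and 3 against 9377 and 7735. The scaffold gene akap12b, among the 8 genes with most counts in null shield, had 5.04 and 3.63 against 8138 and 8038 CPM, 1837-fold lower (-10.86 ± 0.55, adjusted p = 5.23e-07). zgc:158463 was 689-fold lower with a wide standard error (-9.33 ± 2.08, adjusted p = 0.013, edgeR). The call ended under 3 of the 14 alternatives (adjusted p 2.13e-05 to 0.16). This gene also differed among the embryo groups, at 3781 CPM in null shield, 3758 in maternal null and 2873 in sphere. In wild-type and paternal null shield embryos it stood at 7.3 and 10.6 CPM.

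The labelled sperm libraries differed from each other far less than from the embryos. Of 12467 genes with at least 200 counts over both, 116 (0.93%) were more than 2-fold apart, 96 of them higher in replicate 1. The median absolute log2 ratio was 0.19 between the libraries and 1.40 between the groups over the same genes. hspa5 was 1858 CPM in replicate 1 and 1036 in replicate 2, ybx1 265 and 131 CPM, and hbaa1 2.91 and 8.07 CPM. With 1 labelled sperm library left out, 9823 or 9961 genes passed in place of 13752.

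Chromosome 4 stood apart from the other chromosomes. Of its 1406 genes tested, 812 (57.8%) were lower and 184 (13.1%) higher, with a median of -3.02. On the other 24 chromosomes 21.2 to 34.7% were lower and 26.1 to 37.8% higher, with medians from -0.23 to 0.64. Most of the lower genes of chromosome 4 lay between 30 and 70 Mb, where 77.4 to 86% of genes in each 10 Mb bin were lower, against 29.1 and 30.6% in the first 2 bins. The median level there was 0.0114 to 0.0342 CPM in the labelled sperm libraries and 0.674 to 1.3 CPM in null shield. Each of these bins holds 20 to 29 genes with a znf (zinc finger) symbol, and near copies may share reads.

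**Figure D5:**
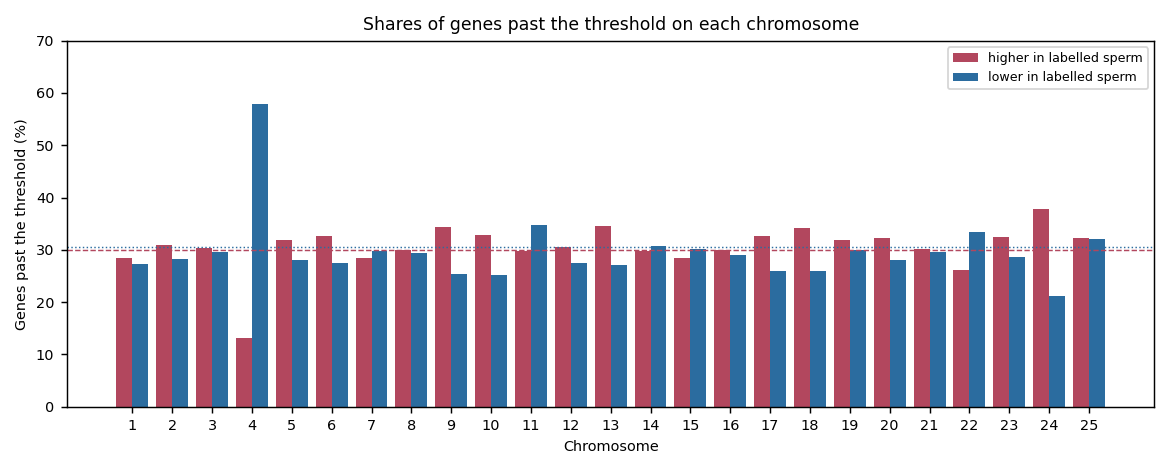
Share of the genes tested on each of the 25 chromosomes that were higher (red) or lower (blue) in the labelled sperm libraries, with the shares over all genes as horizontal lines. Chromosome 4 has 57.8% lower and 13.1% higher, and no other chromosome has more than 34.7% lower.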

How the data were processed

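The authors deposited 1 table of raw counts per gene for 22737 genes in 12 libraries, in which each gene reached at least 10 counts in 1 library or more. Per the labels' protocols, total RNA was depleted of ribosomal RNA and made into stranded Illumina libraries. Novoalign 2.8 and DESeq2 are listed in the submitters' processing notes; which program counted the reads, and with which strand setting, is not given in the sources used here, so overlapping and antisense genes cannot be told apart. Coordinates are those of the table (Zv10).

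Pairs with a chi-square per degree of freedom under 2 over genes with at least 20 counts were summed to 1 sample. The counts were fitted with edgeR 4.0.16 (R 4.3.3; TMM scaling, filterByExpr, robust quasi-likelihood, common biological coefficient of variation 0.262), with Benjamini-Hochberg adjustment over 22712 genes at 0.05. Folds are ratios of group levels, and intervals and floors cover counting error only. In simulated counts for 22712 genes, 100 genes were changed 2-fold and 100 were changed 4-fold. Of these, 10% and 69% were recovered, and 19 of 22512 unchanged genes were called. The false calls were thus a larger share of the simulated calls than the nominal 0.05. The changed genes were drawn from those with more than 20 expected counts in the null shield sample. Far more genes passed in the data, which makes the adjusted threshold less strict there, so these shares do not carry over to it. DESeq2 1.42.0, other scalings and fits, and left-out libraries were alternatives. The fit of the 4 libraries alone kept the null shield pair summed to 1 sample, so its spread came from the labelled sperm pair only.

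The comparison and the 26 lists were chosen with earlier results of these data known. Named were key markers, up to 3 passing genes per list and direction at 5 CPM or more, the 10 largest changes at 20 CPM or more and the 8 genes with most counts per group; list members that did not pass, other examples, clusters, chromosomes and symbol families were named after their values were seen. Symbols were matched in lower case through the table, older symbols and base symbols.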

Additional observations from a re-analysis of the deposited data

How the results depend on the processing

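The number of genes that passed between labelled sperm and null shield, 13752, ranged from 9823 to 17268 over the 14 alternatives and stayed within 1.5 times. Scaling by the upper quartile moved the median of all genes from 0.07 to -0.23 and scaling by library totals to 0.18, so differences of that size are not separable from the scaling. Counting every library as a sample gave 17090, which held 13285 of the 13752 reported calls (96.6% of the reported calls). The deviations of same-numbered replicates had a correlation of -0.003 between the groups. This could not show whether replicate numbers pair the samples, since the null shield libraries differed by little more than counting noise. A replicate block gave 17054. The sphere against null shield count, 8069, became 15149 with every library as a sample and 15051 with the replicate block added. It ranged from 5517 to 13872 with 1 library left out, the higher values without wild-type replicate 1 (13848) or replicate 2 (13872). Scaling by library totals moved the share of its calls that were higher from 55.4% to 69.8%.

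Of 166 named genes that passed, 18 lost the call under 1 or more of the alternatives that tested them, and none reversed. Besides those given above, these were rspo1, brd8 (ENSDARG00000025071), both psmd11 genes, psmb3, psmd8, rpl30, ndufaf1 and hnrnpa0l. Of the 52 list counts, 26 stayed within 1.5 times. The others include the heat shock genes lower (15, up to 28), collagens higher (14, down to 5) and lower (10, up to 17), initiation factors higher (16, down to 9), proteasome genes higher (10, down to 5), respiratory genes lower (3, from 1 to 10), ribosomal list higher (4, up to 7), testis somatic higher (8, down to 5), ovary somatic higher (7, down to 4), liver genes (2 higher, down to 1; 3 lower, down to 1), zygotic activation lower (8, from 5 to 12), germ plasm lower (0, up to 1) and yolk syncytial higher (1, up to 2). The low ends for collagens, initiation factors and proteasome genes came without labelled sperm replicate 1 or replicate 2. The model had 2 residual degrees of freedom, and most 2-fold changes were missed in a simulation in which few genes changed. In the data 6772 genes passed as more than 2-fold higher and 4699 as more than 4-fold higher. The numbers for lower genes were 6832 and 5178, so changes between 2-fold and 4-fold also passed.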

Other observations

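Gene families were grouped by symbol stem, with 12 or more genes each, after the values were seen, and are given as counts with no test. The stem with the largest share lower was snord, the C/D box small nucleolar RNAs that guide ribosomal RNA methylation: all 34 genes were lower in the labelled sperm libraries, with a median of -5.83. Their summed level was 21.7 and 18.7 CPM against 217 and 220.4 CPM. The snora genes, which guide pseudouridylation, were lower in 17 of 18 cases, at 31.7 and 37.6 against 309.6 and 307 CPM. Many of these genes lie inside introns of host genes, so reads from unspliced host RNA may be counted with them. The SR splicing factor genes (srsf) were lower in 14 of 17 cases (1317 and 1165 against 5888 and 5886 CPM), the Hes-related her genes in 11 of 12, and the znf zinc finger genes in 158 of 254.

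In the other direction, 10 of 12 alg genes, which build the N-glycan precursor in the endoplasmic reticulum, were higher and 0 lower, with a median of 2.07 and sums of 776 and 833 against 173 and 169 CPM. Of the pex genes of peroxisome assembly 14 of 18 were higher and 3 lower, and of the trappc genes of vesicle tethering 9 of 15 were higher and 0 lower. The mitochondrial ribosomal protein genes were higher in 24 of 46 (mrpl, 0 lower) and 13 of 27 cases (mrps, 1 lower), and the import genes timm in 8 of 14 (0 lower). The cytosolic rpl genes had 0 of 43 higher and 12 lower (27.9%, near the 30.5% of all genes). The number lower among ribosomal protein genes depended on the samples, as given above.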
